A study of Mus musculus with 6 samples.

Results

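Interferon-stimulated genes are genes whose transcription is switched on by interferons, and 35 of them were followed here in macrophages of the mouse mammary gland. They were taken by symbol from a list of named genes. All 35 were found among the 24061 gene symbols of the table, and all 35 passed the filter on low counts, which left 13348 genes. Bulk RNA-seq had been performed on 6 libraries of sorted cells from FVB/N mice, 3 of CD45+CD11b+F4/80+Lyve-1+ cells and 3 of CD45+CD11b+F4/80+Lyve-1- cells. Both subsets therefore passed the same gate for leukocytes (CD45), myeloid cells (CD11b) and macrophages (F4/80), and differed in the gate for Lyve-1, a receptor for the matrix polymer hyaluronan. Each library was a pool of the #4 (inguinal) glands of both sides of 4 mice, after removal of the lymph nodes. Replicate 1 of each subset came from mice aged 6 weeks, and replicates 2 and 3 came from mice aged 10 weeks. No mouse was given an agent or carried a mutant allele according to the labels. Nothing in the sources says whether libraries with the same number came from the same mice, and p-values measure the spread between these pools.

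Interferons are secreted proteins that cells release on sensing viral or microbial nucleic acid. Type I interferons such as IFN-β bind the receptor IFNAR1/IFNAR2 and act through the kinases TYK2 and JAK1 on a complex that holds STAT2 and IRF9 and binds a DNA element called the interferon-stimulated response element (ISRE). IFN-γ, the type II interferon, binds IFNGR1/IFNGR2 and acts through JAK1 and JAK2 on genes with a palindromic element called GAS. The genes induced include sensors that amplify the response, enzymes and membrane proteins that block viral replication, GTPases that act on vacuoles of intracellular microbes, and regulators that restrain the pathway. Macrophages keep many of these genes at a low level without infection.

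The promoters of the genes were examined for both elements, because they are the sequences that the factors of this pathway bind. RefSeq promoters (GRCm38.p6, 250 bases before to 50 after the start) were at hand for 27 of the 35 genes, with 34 promoters in all; Oas2, Dhx58, Zbp1, Mx1, Mx2, Usp18, Rtp4 and Parp14 are named only. The core of the ISRE was searched on both strands as GAAA-NN-GAAA, in which N is any base and hyphens only set the letters apart. It was present in 17 of the 34 promoters (50%), compared with 3.44% of all 32851 promoters of the same length. The GAS core TTC-NNN-GAA, which is its own reverse complement in this form, was present in 9 of the 34 (26.5%), compared with 8.3% of all promoters. Both were present in 5 promoters, and they overlapped in 2. By gene, 16 of 27 held GAAA-NN-GAAA. Their median log2 fold change between the subsets was 1.05, compared with 1.02 for the 11 genes without it. The 3 genes of these 16 with a log2 fold change below 0 were Gbp2, Gbp3 and Gbp5. The same letters were therefore present in the promoters of genes that lay on both sides of 0.

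Promoters of 8 genes are shown to set the element beside the measurements, 6 of genes with a higher mean in the Lyve-1+ libraries and 2 (Gbp2 and Gbp5) of genes with a lower mean. Each runs 5′ to 3′ on the strand of its gene, from 170 bases before to 30 bases after the RefSeq start, and capitals mark GAAA-NN-GAAA or its reverse complement, with overlapping matches run together.
Ifit1 (chr19:34640719-34640918, plus strand): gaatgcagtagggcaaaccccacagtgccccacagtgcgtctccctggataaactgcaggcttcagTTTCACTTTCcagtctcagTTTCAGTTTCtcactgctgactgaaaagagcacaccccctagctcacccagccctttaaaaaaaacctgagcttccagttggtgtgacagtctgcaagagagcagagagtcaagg
Ifit3 (chr19:34583359-34583558, plus strand): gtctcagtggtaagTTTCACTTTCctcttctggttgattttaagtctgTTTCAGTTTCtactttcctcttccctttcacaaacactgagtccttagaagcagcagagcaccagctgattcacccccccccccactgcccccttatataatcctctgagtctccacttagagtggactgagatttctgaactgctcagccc
Isg15 (chr4:156200789-156200988, minus strand): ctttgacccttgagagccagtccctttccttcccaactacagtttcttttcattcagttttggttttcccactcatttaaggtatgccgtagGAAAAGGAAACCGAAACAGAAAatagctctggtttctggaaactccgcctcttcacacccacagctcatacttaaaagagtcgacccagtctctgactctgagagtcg
Ifitm3 (chr7:141010715-141010914, minus strand): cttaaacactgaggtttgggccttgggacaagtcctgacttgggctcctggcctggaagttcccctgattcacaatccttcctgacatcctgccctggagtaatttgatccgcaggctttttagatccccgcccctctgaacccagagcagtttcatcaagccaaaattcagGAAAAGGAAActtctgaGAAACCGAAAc
Rsad2 (chr12:26456423-26456622, minus strand): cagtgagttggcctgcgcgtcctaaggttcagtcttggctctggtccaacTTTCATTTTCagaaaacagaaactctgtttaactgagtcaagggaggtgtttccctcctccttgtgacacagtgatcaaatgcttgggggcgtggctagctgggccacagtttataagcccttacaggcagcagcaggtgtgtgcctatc
Gbp7 (chr3:142530166-142530365, plus strand): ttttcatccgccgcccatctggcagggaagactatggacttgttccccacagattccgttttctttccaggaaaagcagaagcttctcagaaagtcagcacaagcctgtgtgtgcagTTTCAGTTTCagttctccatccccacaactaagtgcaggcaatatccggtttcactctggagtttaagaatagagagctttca
Gbp2 (chr3:142620493-142620692, plus strand): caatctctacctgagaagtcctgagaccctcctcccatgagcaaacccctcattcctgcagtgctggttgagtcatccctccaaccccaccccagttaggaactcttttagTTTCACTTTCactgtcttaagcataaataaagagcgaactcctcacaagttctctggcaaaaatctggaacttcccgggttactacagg
Gbp5 (chr3:142496764-142496963, plus strand): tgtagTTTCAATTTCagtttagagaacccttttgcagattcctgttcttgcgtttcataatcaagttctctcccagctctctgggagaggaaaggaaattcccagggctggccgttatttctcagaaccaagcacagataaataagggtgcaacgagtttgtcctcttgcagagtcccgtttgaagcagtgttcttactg
Ifit1 and Ifit3 each carried 2 separate matches before the start, whereas Isg15 carried 3 that overlapped. In Ifitm3 both matches lay after the start. The single match of Gbp2 lay 59 bases before the start, close to the 53 bases of Gbp7, although the log2 fold changes of these genes of 1 cluster were of opposite sign (-0.44 and 0.61).

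Library totals ranged from 6478007 to 21406839 counts, so that 3 counts, the limit that a count of 0 allows for counting error, equalled 0.144 to 0.437 CPM (counts after scaling of the libraries to equal size by TMM). Lyve1 was at 1.43, 6.66 and 7.43 CPM in the Lyve-1- replicates 1, 2 and 3 and was higher in all 3 Lyve-1+ libraries (log2 fold change 7.93, SE 0.94, edgeR adjusted p = 0.0254). The gate genes Itgam (CD11b), Ptprc (CD45) and Emr1 (F4/80) and the macrophage growth factor receptor Csf1r were detected in every library, at 1598 counts or more. Itgam and Emr1 overlapped between the subsets. Ptprc was lower and apart in the Lyve-1+ subset (645 to 1130 against 1210 to 1690 CPM, edgeR adjusted p = 0.541). Csf1r was higher and apart in it (1110 to 1750 against 707 to 847 CPM, edgeR adjusted p = 0.28, DESeq2 adjusted p = 0.0462). The libraries differed in a background of reads over genes that macrophages do not use: of 1112 olfactory receptor genes, 651 were detected in replicate 3 of the Lyve-1- subset and 370 in replicate 1 of the Lyve-1+ subset, compared with 4 to 134 in the other libraries. At that density the background would make up at most 7.75% of the counts in any library for 23 of the 35 genes, but 40.6% for Ifi44, 34.5% for Cmpk2, 33% for Mx2, 21.1% for Oasl2 and 18% for Xaf1 in Lyve-1- replicate 3, where these genes were low. The common biological coefficient of variation was 0.931.

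To determine whether the subsets differed in interferon-stimulated genes, the 3 Lyve-1+ libraries were compared with the 3 Lyve-1- libraries. Most of the genes had a higher mean in the Lyve-1+ subset, with the IFIT, 2-5A synthetase and viperin genes at 2.03- to 4.94-fold, whereas 3 of the 4 guanylate-binding protein genes and Irf1 lay on the other side. None reached an edgeR adjusted p under 0.05, and the spread between pools was wide. In all, 28 of 35 genes (80%) had a log2 fold change above 0, compared with 49.4% of all genes tested. Their median log2 fold change was 0.96, compared with -0.01 for all genes, and ran from -1.22 for Gbp5 to 2.30 for Ifit3. At an edgeR adjusted p under 0.05, 0 of 35 were called, against 0.629% of all genes, and the lowest adjusted p was 0.181, for Ddx58. A stricter rule (adjusted p below 0.01, and a difference of 1 to 10 on the log2 scale), which 0.112% of all genes passed, also gave 0. At an unadjusted p under 0.05 there were 13 (37.1%), 12 higher and 1 lower, compared with 7.69% of all genes, 4.2% higher and 3.5% lower. DESeq2 called 1 of the 35 (Oasl2, adjusted p = 0.0272) where it called 1.9% of all genes, and had 14 at an unadjusted p under 0.05 (8.65% of all genes). The 3 values of each subset lay apart from those of the other in 8 of the 35 (22.9%), compared with 14.3% of all genes. Of these, 6 were higher in the Lyve-1+ subset (Ddx58, Oas2, Oasl2, Gbp7, Ifitm3 and Xaf1; 7.82% of all genes) and 2 were lower (Irf1 and Gbp2; 6.5% of all genes). The count of 13 depended on the libraries used. With replicate 1, 2 or 3 of the Lyve-1- subset left out it was 7, 19 or 6. With replicate 1, 2 or 3 of the Lyve-1+ subset left out it was 5, 8 or 22. In the 10-week libraries alone it was 3, and without Lyve-1- replicate 3 and Lyve-1+ replicate 1 it was 1. The share of all genes at that unadjusted p was not counted in these settings. A change in these counts therefore cannot be told apart from a change over all genes. Without Lyve-1- replicate 2, 6 genes (Ifit1, Oas2, Oasl1, Oasl2, Rsad2 and Ifitm3) had an edgeR adjusted p under 0.05, where 0.747% of all genes did. In bulk RNA, a different share of cells that use a gene and a different amount of its RNA per cell cannot be told apart.

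**Figure D1:**
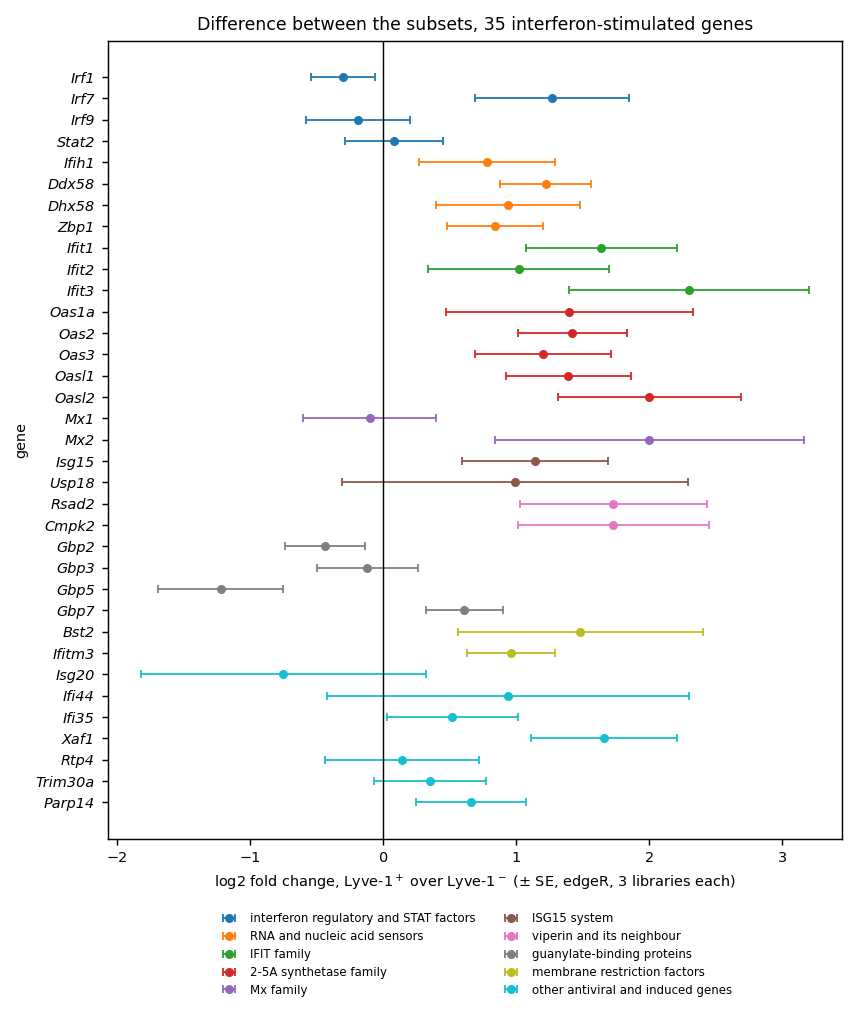
Log2 fold change (Lyve-1+ over Lyve-1-) of each of the 35 genes (points) with its standard error (bars), fitted by edgeR on 3 libraries of each subset; colours mark the role of each gene. Points for 28 genes lie right of 0, and Gbp5 at -1.22 and Ifit3 at 2.30 are the extremes.

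The transcription factors of the pathway differed little, apart from Irf7. Irf7, a factor that is itself induced by interferon and then drives the IFN-α genes, was at 46, 126 and 43.9 CPM in Lyve-1- replicates 1, 2 and 3 and at 222, 247 and 51.3 CPM in Lyve-1+ replicates 1, 2 and 3. The first and second Lyve-1+ libraries were above all others, and the third lay among the Lyve-1- values. Its log2 fold change was 1.27 (SE 0.58, edgeR adjusted p = 0.656; chromosome 7 of mm10, 141262706 to 141266481). Stat2 and Irf9, of the ISRE-binding complex, had log2 fold changes of 0.08 and -0.19, and the subsets overlapped in both. Irf1, a factor that responds to IFN-γ and to inflammatory signals, was at 414, 377 and 371 CPM in the Lyve-1- libraries and at 349, 311 and 281 CPM in the Lyve-1+ libraries. Its groups did not overlap, but the difference was small, with 387 ± 23.5 CPM against 314 ± 34.3 (SD, n = 3 each; log2 fold change -0.30, edgeR adjusted p = 1). Among the 35 genes, the highest and lowest libraries of Irf1 lay closest together in ratio.

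The 4 cytosolic sensors all had higher means in the Lyve-1+ subset, with log2 fold changes of 0.78 to 1.22. Ddx58 encodes RIG-I, the sensor of viral RNA ends, and was at 56.7, 64 and 35.1 CPM in the Lyve-1- libraries and at 122, 141 and 101 CPM in the Lyve-1+ libraries. The lowest Lyve-1+ value exceeded the highest Lyve-1- value, and the means were 51.9 ± 15 and 121 ± 20.3 CPM (SD, n = 3), a 2.33-fold difference (log2 fold change 1.22, SE 0.34, unadjusted p = 0.00294, edgeR adjusted p = 0.181; chromosome 4, 40203773 to 40239828). Ifih1 encodes MDA5, the sensor of long double-stranded RNA, Dhx58 encodes the related regulator LGP2, and Zbp1 encodes a sensor of Z-form nucleic acid that can trigger cell death. Zbp1 had 80.3 ± 26.3 against 144 ± 48.5 CPM (SD, n = 3), with an unadjusted p = 0.0345 and an edgeR adjusted p = 0.559. For these 3 genes Lyve-1- replicate 2 was above Lyve-1+ replicate 3, so the subsets overlapped.

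Within the IFIT family, whose proteins bind foreign RNA and block its translation, the log2 fold changes ran from 1.02 for Ifit2, near the median of the 35 genes, to 2.30 for Ifit3, the highest of them. Ifit1, Ifit2 and Ifit3 lie in 1 cluster on chromosome 19, between 34550694 and 34650009. Ifit3 was at 2.02, 18.7 and 4.96 CPM in the Lyve-1- libraries and at 64.6, 54.8 and 7.81 CPM in the Lyve-1+ libraries. Lyve-1+ replicates 1 and 2 stood far above the rest, while the third lay within the Lyve-1- range. The means of Ifit3 were 8.57 ± 8.93 and 42.4 ± 30.4 CPM (SD, n = 3; log2 fold change 2.30, SE 0.90, unadjusted p = 0.0237, edgeR adjusted p = 0.494; 34583531 to 34588731). Reads shared with the near-identical copy Ifit3b (I830012O16Rik in the table, log2 fold change 2.98) could have been divided between the copies. Ifit1 was at 13.1, 42.2 and 10.5 CPM against 94, 76.4 and 35.5 CPM, so only Lyve-1- replicate 2 exceeded a Lyve-1+ library. The fitted log2 fold change of Ifit1 was 1.64 (SE 0.57, edgeR adjusted p = 0.356). For Ifit2, Lyve-1+ replicate 3, at 31.2 CPM, was the lowest of all 6 libraries.

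The 2-5A synthetase family, which makes the oligoadenylates that activate RNase L (Oas1a, Oas2, Oas3) or has lost that activity (Oasl1), had higher means in the Lyve-1+ subset for 5 of 5 genes, at 2.3- to 4.01-fold. Oasl2 was at 31.3, 95.8 and 11.7 CPM in the Lyve-1- libraries and at 253, 206 and 98.1 CPM in the Lyve-1+ libraries. The groups did not overlap, but the highest Lyve-1- library and the lowest Lyve-1+ library almost met. Its means were 46.2 ± 44 and 186 ± 79.6 CPM (SD, n = 3; log2 fold change 2.00, SE 0.69, unadjusted p = 0.0169, edgeR adjusted p = 0.421; chromosome 5, 114896936 to 114912234). DESeq2 placed it below the threshold (adjusted p = 0.0272), and it is the only one of the 35 that DESeq2 called. Oas2 was at 47.1, 96.6 and 29.9 CPM against 116, 171 and 177 CPM, and was among the few genes in which Lyve-1+ replicate 3 was not the lowest of its subset. For Oas2 the log2 fold change was 1.42 (SE 0.41, unadjusted p = 0.00338, edgeR adjusted p = 0.197). Oasl1, an inhibitor of Irf7 translation, had 124 ± 85.3 against 325 ± 110 CPM (SD, n = 3; edgeR adjusted p = 0.372), and Oas3 had 38.1 ± 24 against 87.6 ± 42.5 CPM (SD, n = 3; edgeR adjusted p = 0.551). Oas1a was at 0.672 to 18.9 CPM in the Lyve-1- libraries and at 11.1 to 38.7 CPM in the Lyve-1+ libraries, and it may share reads with its copy Oas1g.

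**Figure D2:**
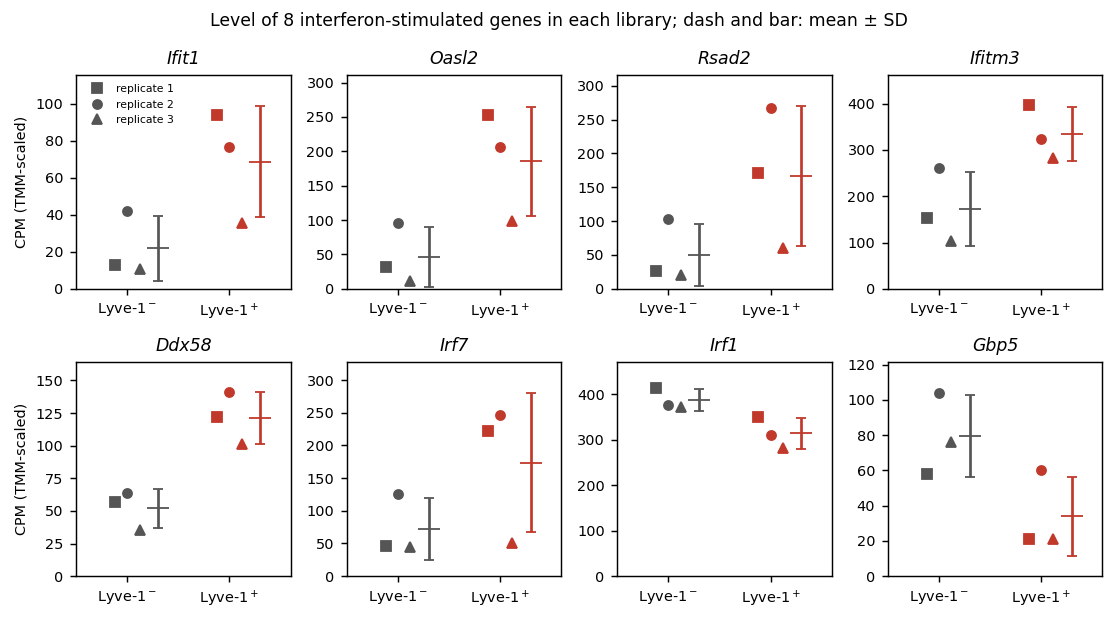
Level of 8 interferon-stimulated genes in CPM (y axis, from 0) in each library (points; squares, circles and triangles are replicates 1, 2 and 3), with the mean ± SD of the 3 libraries of each subset (dash and bar). Ddx58, Oasl2, Ifitm3 and Irf1 do not overlap between the subsets, whereas in Ifit1, Rsad2 and Irf7 Lyve-1- replicate 2 lies above Lyve-1+ replicate 3.

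The Mx genes encode dynamin-like GTPases that trap viral particles, and the 2 members gave different results. Mx2 was at 0.168, 10.4 and 4.23 CPM in the Lyve-1- libraries, of which the first rests on 2 counts, and at 18.8, 32.9 and 7.56 CPM in the Lyve-1+ libraries. Its log2 fold change was 2.00 with a standard error of 1.16 (edgeR adjusted p = 0.85; chromosome 16, 97535308 to 97560900). Mx1 had 53.4 ± 32.3 against 49.9 ± 12.7 CPM (SD, n = 3), and its log2 fold change of -0.10 turned positive when Lyve-1- replicate 2 was left out (0.34). Inbred laboratory strains commonly carry defective Mx genes, and these values are of RNA. The neighbouring Mx1 and Mx2 may also share reads.

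Isg15 encodes a ubiquitin-like protein that is joined to target proteins, and Usp18 encodes the protease that removes it and also restrains IFNAR signalling. Isg15 was at 12.5, 36.4 and 13.8 CPM in the Lyve-1- libraries and at 45.9, 61.7 and 30.7 CPM in the Lyve-1+ libraries, with an overlap between the second and the third pools. Its log2 fold change was 1.14 (SE 0.55, edgeR adjusted p = 0.67; chromosome 4, 156199424 to 156200818). Usp18 had 566 and 339 counts in Lyve-1+ replicates 1 and 2 and 0 in replicate 3, where the limit was 0.378 CPM, compared with 57 to 153 counts in the Lyve-1- libraries. Its standard error of 1.30 was larger than its log2 fold change of 0.99, which was -0.24 without Lyve-1+ replicate 1.

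Rsad2 and Cmpk2 are neighbours on chromosome 12 (26442746 to 26456452 and 26469204 to 26479837). Rsad2 encodes viperin, which makes a chain-terminating nucleotide from CTP, and Cmpk2 encodes a kinase that supplies that substrate. Rsad2 was at 26.5, 103 and 20.7 CPM in the Lyve-1- libraries and at 171, 267 and 60.9 CPM in the Lyve-1+ libraries, so Lyve-1- replicate 2 lay between the Lyve-1+ values. Its means were 50 ± 45.8 and 166 ± 103 CPM (SD, n = 3; log2 fold change 1.73, SE 0.70, unadjusted p = 0.0348, edgeR adjusted p = 0.56). Cmpk2 was at 4.66 to 19.7 against 19.3 to 42.5 CPM, with the same log2 fold change of 1.73 (SE 0.72, edgeR adjusted p = 0.537). In contrast to Rsad2, it was highest in Lyve-1+ replicate 3.

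The guanylate-binding proteins are GTPases that IFN-γ induces strongly and that coat the vacuoles of intracellular pathogens. The 4 genes lie in 1 cluster on chromosome 3 (142493978 to 142638008), and 3 of them had log2 fold changes below 0, as did Irf1, Irf9, Mx1 and Isg20 of the other genes. Gbp5, which also promotes inflammasome assembly, was at 58.1, 104 and 76.2 CPM in the Lyve-1- libraries and at 20.9, 60 and 21.3 CPM in the Lyve-1+ libraries. Lyve-1+ replicate 2 just exceeded Lyve-1- replicate 1, and the remaining libraries kept apart. Its means were 79.3 ± 22.9 and 34.1 ± 22.5 CPM (SD, n = 3), 2.32-fold lower in Lyve-1+ cells (log2 fold change -1.22, SE 0.47, unadjusted p = 0.0213, edgeR adjusted p = 0.466; 142493978 to 142522344). Gbp2 was at 118, 133 and 185 CPM against 98.4, 117 and 105 CPM, without overlap (log2 fold change -0.44, edgeR adjusted p = 0.935). Gbp3 had a log2 fold change of -0.12 and overlapped. Gbp7 went the other way, at 111, 122 and 99 CPM against 205, 174 and 127 CPM, again without overlap (log2 fold change 0.61, SE 0.29, edgeR adjusted p = 0.671). The genes of this family resemble each other, so reads may have been divided between them.

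The membrane factors Bst2 (tetherin, which holds budding virus at the cell surface) and Ifitm3 (which blocks fusion in endosomes) both had higher means in the Lyve-1+ subset. Ifitm3 was at 153, 261 and 104 CPM in the Lyve-1- libraries and at 398, 324 and 283 CPM in the Lyve-1+ libraries. The groups did not overlap, with means of 173 ± 80.2 and 335 ± 58.4 CPM (SD, n = 3; log2 fold change 0.96, SE 0.33, unadjusted p = 0.0108, edgeR adjusted p = 0.341; chromosome 7, 141009586 to 141010770). Bst2 was at 53 and 50 CPM in Lyve-1+ replicates 1 and 2 but at 3.91 CPM in replicate 3, and ran from 2.62 to 23.8 CPM in the Lyve-1- libraries. Its log2 fold change of 1.48 had a standard error of 0.92 (edgeR adjusted p = 0.9; chromosome 8, 71534255 to 71537456).

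Of the 7 remaining genes, 6 had log2 fold changes above 0. Xaf1, which encodes a pro-apoptotic antagonist of XIAP, was at 9.83, 23.9 and 10.1 CPM in the Lyve-1- libraries and at 35.9, 55 and 47.5 CPM in the Lyve-1+ libraries. No Lyve-1+ value was as low as any Lyve-1- value, and the means were 14.6 ± 8.06 and 46.1 ± 9.63 CPM (SD, n = 3; log2 fold change 1.66, SE 0.55, unadjusted p = 0.00861, edgeR adjusted p = 0.312; chromosome 11, 72301629 to 72313733). Parp14 (an ADP-ribosyltransferase), Ifi35, Trim30a (a TRIM-family regulator that may share reads with Trim30d) and Rtp4 had log2 fold changes of 0.66, 0.52, 0.35 and 0.14, with edgeR adjusted p-values of 0.902 to 1. Ifi44 was at 38.5 and 49.9 CPM in Lyve-1+ replicates 1 and 2 and had 1 count in replicate 3. Isg20, an exonuclease, was the gene with a log2 fold change below 0 (-0.75, SE 1.07), which became 0.18 without Lyve-1- replicate 2, its highest library.

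Levels can be compared between genes only per length, so CPM per kilobase of exon (RPKM) were computed for each gene over its GENCODE exons. By the mean over all 6 libraries, Ifitm3 was the most abundant of the 35 at 375 RPKM, followed by Irf1 at 88.2, Oasl1 at 86, Parp14 at 54.5 and Gbp2 at 50.1. The least abundant were Cmpk2 at 5.1, Ifi44 at 3.66 and Mx2 at 3.41 RPKM. In the Lyve-1- subset the order of the upper genes was Ifitm3 (255), Irf1 (97.4) and Gbp2 (57.8), and in the Lyve-1+ subset it was Ifitm3 (495), Oasl1 (124) and Irf1 (78.9). Ifitm3 was above Irf1 in every library, whereas Irf1 was above Oasl1 in the 3 Lyve-1- libraries and below it in the 3 Lyve-1+ libraries. Each later neighbour in the order differed from the next by less than the spread between libraries.

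The libraries within each subset were ordered alike across many of the genes. Lyve-1- replicate 2 was the highest of its subset in 28 of 35 genes, compared with 30.6% of all genes tested, and Lyve-1- replicate 3 was the lowest in 26 (24.7% of all genes). Lyve-1+ replicate 3 was the lowest of its subset in 28 of 35 (43.9% of all genes). Relative to each gene's mean log2 CPM over the 6 libraries, the median of the 35 genes was -0.60, 0.34 and -1.04 in Lyve-1- replicates 1, 2 and 3 and 0.68, 0.95 and -0.31 in Lyve-1+ replicates 1, 2 and 3. Lyve-1- replicate 2 was above Lyve-1+ replicate 3 in 27 of 35 genes. The share of all genes was not counted, so this number is not read as a trait of the 35. The subsets overlapped in these 27 genes except Irf1 and Gbp2, which were lower and apart in the Lyve-1+ subset. Lyve-1+ replicates 1 and 2 were both above all 3 Lyve-1- libraries in 24 of 35 genes (68.6%), compared with 14.1% of all genes. Between libraries with the same number, the Lyve-1+ library was the higher in 29 of 35 genes for replicate 1 (57% of all genes), in 28 for replicate 2 (54.4%) and in 22 for replicate 3 (43%).

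**Figure D3:**
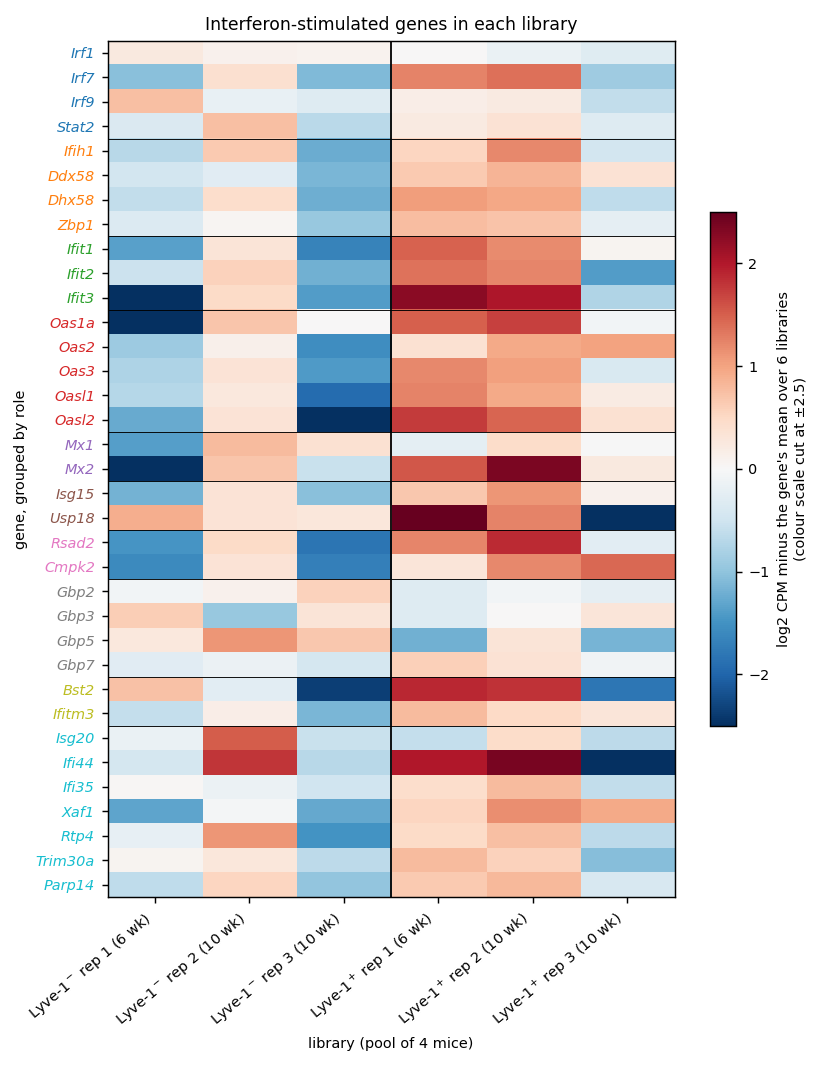
Log2 CPM of each gene (rows, grouped by role and coloured as such) in each of the 6 libraries (columns, pools of 4 mice), minus the mean of that gene over the libraries; red is above and blue below the mean, and the colour scale ends at ±2.5. Lyve-1+ replicates 1 and 2 are red for most genes, Lyve-1- replicates 1 and 3 are blue for most genes, and the medians of Lyve-1- replicate 2 and Lyve-1+ replicate 3 (0.34 and -0.31) lie between.

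Markers of other cell types also differed between the libraries. For fibroblasts (7 of 7 marker genes detected in every library) the summed level was 981 to 1190 CPM in the Lyve-1- libraries. It was 1740 to 7030 CPM in the Lyve-1+ libraries, with the top value in Lyve-1+ replicate 3. In that library Col3a1, Col1a1 and Col1a2 were at 3570, 1580 and 1120 CPM. The study lists collagen-related genes among those higher in its Lyve-1+ macrophages. For conventional dendritic cells the summed level was 542 to 1590 against 127 to 419 CPM, without overlap. Of their 7 markers, 6 were detected in every library, with Clec9a at 0 in Lyve-1- replicate 2 and Lyve-1+ replicate 3. Much of the gap in the sum came from Ccr7 (139 to 505 against 14.8 to 107 CPM) and Ccl22 (139 to 722 against 3.28 to 54.8 CPM). Ccr7, Ccl22 and Xcr1 lay apart between the subsets, whereas Flt3, Zbtb46, Clec9a and Cd209a overlapped. For monocytes the summed level was 536 to 1210 against 357 to 919 CPM, with all 8 markers detected in every library. Among these, Ly6c2, the gene of a surface antigen of classical monocytes, was at 18.1, 123 and 8.89 CPM in Lyve-1- replicates 1, 2 and 3 and at 4.5, 68.9 and 4.79 CPM in Lyve-1+ replicates 1, 2 and 3, so it was highest in the same library of each subset as many of the interferon-stimulated genes; it was picked after its values were seen. For plasmacytoid dendritic cells, a major source of type I interferon, it was 151 to 224 against 254 to 279 CPM, of which Tcf4, a factor that other cells also use, made up 97.5 to 123 and 168 to 199 CPM. The other way round, the median log2 fold change of the 5 tested markers of this type was -0.84, from -2.49 for Ccr9 to 0.90 for Siglech. Of the 8 markers, 3 were detected in every library, and 4 and 5 were at 0 in Lyve-1- replicate 2 and Lyve-1+ replicate 3. For neutrophils the summed level was 123 to 207 against 247 to 561 CPM, without overlap. Mmp9 alone was at 26.3 to 91.4 CPM in the Lyve-1- libraries. In Lyve-1+ replicates 1, 2 and 3, Mmp9 made up 229 of 315, 164 of 247 and 113 of 561 CPM. Of the 7 neutrophil markers, 4 were detected in every library, and the median log2 fold change was 1.35 over the 5 tested. Among them S100a9, which encodes a calcium-binding protein abundant in neutrophils, was at 6.13 to 17.8 against 22 to 173 CPM (edgeR adjusted p = 0.234). DESeq2 called S100a9 (adjusted p = 0.0152), and it was picked after its values were seen. Retnlg was the only one of the 5 below 0, with a log2 fold change of -1.08 (SE 1.57), and its subsets overlapped. Camp and Ngp, of neutrophil granules, were at 0 in 5 and 3 of the 6 libraries. Of the 72 markers of all 12 cell types that were tested, edgeR called 0 at an adjusted p under 0.05 (0.629% of all genes). An edgeR unadjusted p under 0.05 was found for 18 of the 72, compared with 7.69% of all genes. DESeq2 called 6 of the 72, where it called 1.9% of all genes. These were S100a9, the fibroblast markers Col1a2 (DESeq2 adjusted p = 2.12e-05), Pdgfra (0.0102) and Lum (0.0372), and Ccl22 (0.0288) and Csf1r (0.0462). Ccl22 was lower in the Lyve-1+ subset and the others were higher. The part of these cells in the levels of the interferon-stimulated genes was not tested.

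The pools of 10 weeks were set against those of 6 weeks in a model that also held the subset. With 1 library of each subset at 6 weeks, age and those pools cannot be told apart. Of the 35 genes, 0 were called by edgeR at an adjusted p under 0.05 (0.0225% of all genes) and 1 had an unadjusted p under 0.05 (3.33% of all genes), and the count of 0 held with each 10-week library left out in turn. That gene was Mx1, with a log2 fold change of 1.17 (SE 0.50, unadjusted p = 0.0337, edgeR adjusted p = 1), at 18 and 39.4 CPM in the pools of 6 weeks and at 46.2 to 81.1 CPM in the pools of 10 weeks. The median log2 fold change of the 35 genes with age was 0.09, compared with 0.07 for all genes. The test of whether the difference between the subsets depended on age called 0 of the 35 (0.00749% of all genes), with Oas1a and Mx2 at unadjusted p-values of 0.0122 and 0.0422 (4.59% of all genes were under 0.05; edgeR adjusted p = 0.92 and 0.976). Both had few counts in Lyve-1- replicate 1, at 8 and 2.

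The rest of the pathway was examined with lists of 133 genes present in the table, from the ligands to further induced genes. Transcripts of the ligands were scarce: of 21 interferon genes, 1 to 8 had a count in a given library, and Ifnk, of keratinocytes, was the only one that passed the filter (log2 fold change 0.45, SE 2.80). Ifnb1 had 0, 7 and 0 counts in the Lyve-1- libraries and 20, 137 and 3 in the Lyve-1+ libraries, and Ifng had 3, 35 and 6 against 4, 0 and 0. Neither passed the filter, so neither was tested. Summed over the 21 genes, the counts were 3, 42 and 73 in the Lyve-1- libraries and 73, 164 and 26 in the Lyve-1+ libraries, so the subsets overlapped. These are raw counts from libraries of unequal totals, and no background was subtracted. In Lyve-1- replicate 3, Ifna4 and Ifnk held 32 and 23 of the 73 counts. The olfactory receptor background was densest in that library, at 2.65 counts per kb.

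The genes of the receptors and of the first steps of signalling had medians near 0. The 5 receptor genes tested had a median log2 fold change of -0.10, from -0.67 for Ifngr2 (edgeR adjusted p = 0.701) to 0.18 for Il10rb (adjusted p = 1), and 0 of 5 were called by edgeR or DESeq2 or had an unadjusted p under 0.05. The 3 receptor kinase genes had a median of -0.18, with Tyk2 and Jak1 at -0.11 and -0.18; 0 were called by edgeR, and Jak2 had an unadjusted p under 0.05, as 7.69% of all genes did, and was called by DESeq2. Jak2, the kinase of the IFN-γ receptor and of many cytokine receptors, was at 600, 498 and 486 CPM in the Lyve-1- libraries and at 84.1, 223 and 288 CPM in the Lyve-1+ libraries. The groups were well separated (528 ± 62.4 against 198 ± 104 CPM, SD, n = 3; log2 fold change -1.41, SE 0.37, unadjusted p = 0.00188, edgeR adjusted p = 0.145), and DESeq2 called it (adjusted p = 0.00683).

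For the 20 upstream sensors, adaptors and kinases the median was 0.09 and 0 were called by edgeR or DESeq2. The extremes were Tlr3, the endosomal receptor of double-stranded RNA, at 1.81 (SE 1.78, edgeR adjusted p = 1) and Mb21d1, which encodes the DNA sensor cGAS, at -1.02 (SE 0.48, edgeR adjusted p = 0.653). Mb21d1 did not overlap between the subsets, at 32.4 to 51.6 CPM against 17.8 to 23.6 CPM. An unadjusted p under 0.05, which 7.69% of all genes had, was found for 2 of the 20, the DNA sensor gene Ifi204 (log2 fold change 0.92, edgeR adjusted p = 0.417) and the RNA sensor gene Tlr8 (0.95, edgeR adjusted p = 0.626), both picked after their values were seen. For the 11 negative regulators the median was -0.14 and 0 were called by edgeR or DESeq2. Socs1 and Socs3, which encode inhibitors of JAK kinases, were the extremes at -0.95 (SE 0.97, edgeR adjusted p = 1) and 0.39 (SE 0.24, edgeR adjusted p = 0.874). The 1 gene of the 11 with an unadjusted p under 0.05 was Ptpn2, also picked after its values were seen, which encodes a phosphatase of JAK kinases (log2 fold change -0.79, unadjusted p = 0.0307, edgeR adjusted p = 0.541).

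Further interferon-stimulated genes outside the 35 were taken as 1 list. Of 72 that the table held, 66 were tested, 48 had a log2 fold change above 0 and the median was 0.50. Here edgeR called 4 at an adjusted p under 0.05, all higher in the Lyve-1+ subset, where 0.45% of all genes were called higher, and 14 had an unadjusted p under 0.05, all of them higher, where 4.2% of all genes were. Gbp6, a guanylate-binding protein gene, was at 3.7, 7.11 and 7 CPM in the Lyve-1- libraries and at 50, 79.7 and 51 CPM in the Lyve-1+ libraries (log2 fold change 3.34, SE 0.54, edgeR adjusted p = 0.012). Its log2 fold change was the highest of the tested genes of these lists, while those of Gbp2, Gbp3 and Gbp5 were below 0. Ddx60, a helicase that assists RIG-I, was at 43.9, 87.7 and 27.7 CPM against 281, 220 and 212 CPM (log2 fold change 2.16, SE 0.39, edgeR adjusted p = 0.0245). Ifi27l2a, of the family of small interferon-induced mitochondrial proteins, was at 46, 84.1 and 40.8 CPM against 227, 207 and 145 CPM (log2 fold change 1.76, SE 0.35, edgeR adjusted p = 0.0376). Ly6e, which encodes a surface protein that restricts coronavirus entry, was at 239, 350 and 221 CPM against 1050, 691 and 500 CPM (log2 fold change 1.47, SE 0.31, edgeR adjusted p = 0.0438). All 4 separated the subsets in every library, with Lyve-1- replicate 2 again the highest Lyve-1- library, for Gbp6 by a small margin over replicate 3. The 4 calls were lost when Lyve-1- replicate 3 was left out (edgeR adjusted p = 0.0696, 0.0927, 0.185 and 0.216 for Gbp6, Ddx60, Ifi27l2a and Ly6e). Leaving out Lyve-1+ replicate 1 gave 0.107 for Ifi27l2a and 0.148 for Ly6e, and leaving out replicate 1 of the Lyve-1- subset gave 0.059 for Ly6e. The lowest log2 fold change of the list was that of Plscr1, the phospholipid scramblase gene, at 7.56, 1.6 and 14 CPM against 1.75, 2.78 and 0 CPM, which did not pass the test (log2 fold change -2.33, SE 2.02, edgeR adjusted p = 1).

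**Figure D4:**
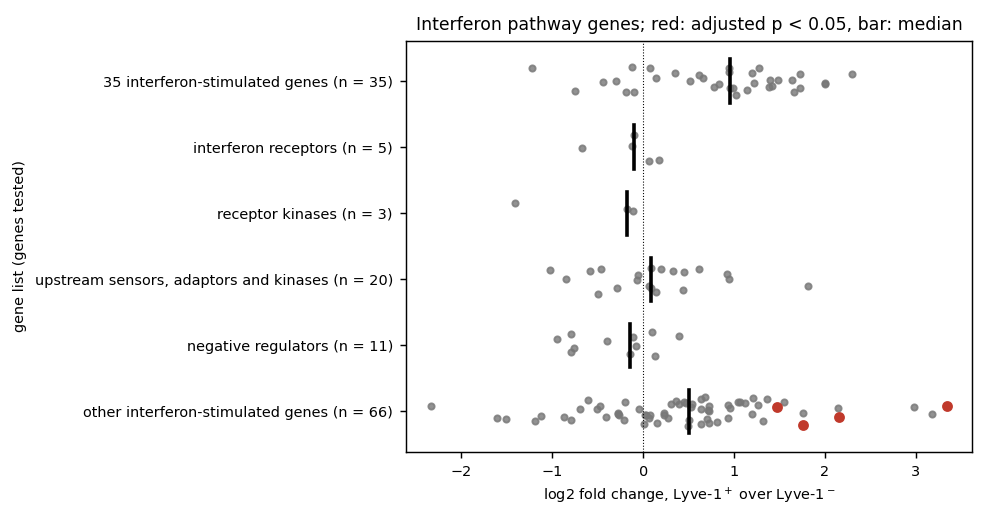
Log2 fold change (Lyve-1+ over Lyve-1-, x axis) of each tested gene (points) by list, with the median (black bar); red points had an edgeR adjusted p under 0.05. The median is 0.96 for the 35 genes and 0.50 for the other interferon-stimulated genes, while the lists of receptors, kinases, sensors and negative regulators have medians of -0.18 to 0.09.

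The median of the 35 genes stayed above 0 under each of the 16 other settings tried, with values of 0.42 to 1.43. The lowest was without the pair of libraries with the most olfactory receptor genes detected (Lyve-1- replicate 3 and Lyve-1+ replicate 1), followed by 0.59 in the libraries of 10 weeks alone, and the highest was without Lyve-1- replicate 2. Subtraction of the olfactory receptor background gave 1.00. At an adjusted p under 0.05, 5 of the 35 genes were called without a filter on low counts, where 1.33% of all genes were, and 5 with the replicate number as a block, where 2.02% were. Of the single genes, 27 lay on the same side of 0 in every setting in which they could be fitted, and 8 (Irf9, Stat2, Mx1, Usp18, Gbp3, Isg20, Rtp4 and Trim30a) crossed it in at least 1.

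**Figure D5:**
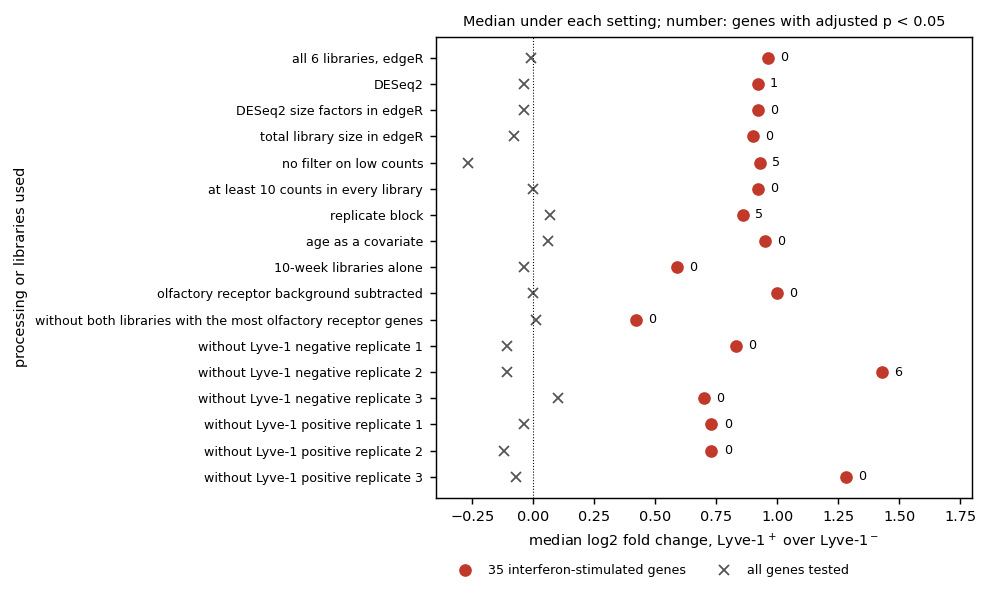
Median log2 fold change (Lyve-1+ over Lyve-1-, x axis) of the 35 genes (red) and of all genes tested (crosses) under each setting (rows); the number beside a point counts the interferon-stimulated genes with an adjusted p under 0.05. Red points run from 0.42 to 1.43, and the crosses stay between -0.27 and 0.10.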

How the data were processed

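RNA-seq was performed on 6 pools of sorted mouse mammary gland macrophages. The authors mapped paired reads to mm10 with HISAT2 2.0.2 and counted reads per gene with featureCounts 1.5.0; the deposited values are raw counts for 24061 gene symbols, without normalization. The annotation and strand setting of the counting are not given in the sources used here. The library kit was stranded and made from total RNA. The methods state that short genes and 1 library from 6-week-old mice were removed.

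Here, counts were filtered with edgeR's filterByExpr by subset and scaled by TMM (a size factor per library that ignores extreme genes). The quasi-likelihood test of edgeR 4.0.16 (R 4.3.3, limma 3.58.1) compared the subsets in 13348 genes, with no other term, and p-values were adjusted by Benjamini-Hochberg over all of them. The study's methods name DESeq2, which was run here as an alternative (version 1.42.0). Other alternatives changed the scaling (DESeq2 size factors or total size), the filter (none, or a minimum of 10 counts in each library), the model (a replicate block or an age covariate) or the libraries (those of 10 weeks, or some left out), or subtracted an olfactory receptor background. The age test had the subset as a second term. Log2 CPM used a prior count of 2.

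One further gene of the pathway lists is not reported here. The 35 genes and all gene lists were chosen with earlier results of these data known. Full statistics are given for genes past the test and for the gene with the largest fold change in each role group; of the pathway lists, for genes past the test and the gene with the largest and the smallest log2 fold change of each list. Positions came from GENCODE M21 on mm10, to which 22757 symbols matched directly and 935 through a RefSeq synonym, while 369 did not match. Promoters came from RefSeq on GRCm38.p6. On counts simulated for the subset comparison with the estimated dispersions (12115 genes run), edgeR recovered 23% of 200 genes given a log2 fold change of 2, with 2 false calls; at a dispersion of 0.1 (13265 genes run) it recovered 91.5%, with 10 false calls. Libraries with the same replicate number did not deviate together from their subset means (correlations -0.05, 0 and -0.15), so the main test is unpaired.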

Additional observations from a re-analysis of the deposited data

How the results depend on the processing

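The median log2 fold change of the 35 genes stayed above 0 under each alternative (0.42 to 1.43). At an edgeR adjusted p under 0.05, 5 of the 35 were called without a filter on low counts (Irf7, Oas2, Oasl1, Oasl2 and Rsad2, where 1.33% of all genes were called) and 0 to 6 with one library left out, while DESeq2 called 1. With the replicate number as a block, 5 were called (Oas2, Oasl1, Oasl2, Rsad2 and Ifitm3, where 2.02% of all genes were called) and the median was 0.86. The sources do not say whether the numbers pair the libraries, and correlations over all genes with 3 pools a subset cannot settle it. A call gained under the block is not read as a stronger effect. The filter of at least 10 counts in every library kept 31 of the 35. The cause of these differences was not tested. With 3 pools a subset and this spread, differences of the size seen here could be missed. The shallowest library, Lyve-1- replicate 3, also held the most olfactory receptor reads.

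Over all genes, the number with an edgeR adjusted p under 0.05 was 84, and 15 passed the stricter rule (adjusted p under 0.01, log2 fold change of 1 to 10 in size). These numbers were 254 and 145 with DESeq2, 289 and 188 without a filter, 270 and 140 with the replicate block and 130 and 58 with age as a covariate. The second was 32 with at least 10 counts in every library, and the first was 39 in the 10-week libraries alone. They were 3 and 0 without Lyve-1- replicate 3 and Lyve-1+ replicate 1, and 19 to 153 and 1 to 81 with one library left out, lowest without Lyve-1- replicate 3 and highest without Lyve-1+ replicate 2.

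Log2 fold changes near 0 or with wide errors changed sign. With the replicate block they were 0.12 for Mx1 and -0.20 for Usp18, and with age as a covariate 0.12 for Mx1. In the 10-week libraries alone they were 0.12 for Irf9, -0.17 for Stat2, -0.06 for Usp18, 0.35 for Gbp3, -0.13 for Rtp4, -0.19 for Ifnk, -0.11 for Tlr3 and -0.07 for the median of the upstream sensors. Without Lyve-1- replicate 3 and Lyve-1+ replicate 1 they were -0.26 for Stat2, 0.13 for Mx1, -0.43 for Usp18, 0.10 for Gbp3, -0.40 for Rtp4, -0.23 for Trim30a and 0.06 for the median of the receptors. With one library left out they ran from -0.38 to 0.22 for Irf9, -0.18 to 0.64 for Stat2, -0.53 to 0.34 for Mx1, -0.24 to 1.54 for Usp18, -0.46 to 0.20 for Gbp3, -1.25 to 0.18 for Isg20, -0.28 to 1.02 for Rtp4, -0.40 to 7.31 for Ifnk, -0.39 to 0.10 for the median of the receptors and -0.06 to 0.12 for that of the upstream sensors.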
